A study of Rattus norvegicus with 12 samples.

Results

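The genes described here are the subunits of the proteasome and the factors that assemble, activate or inhibit it. They were taken from the table of gene counts by name, as the entries that begin with Psma, Psmb, Psmc, Psmd, Psme, Psmf or Psmg and a number, without the interferon-inducible Psmb8 and Psmb9. Of 48 such names, 45 had at least 10 counts in at least 3 of the 12 libraries, and all 45 were among the 14669 genes that could be tested, out of 28727 named entries. The 3 names that missed the count minimum were Psma8, with no count in any library, Psmb11, with 6 counts in all, and the pseudogene Psme1-ps1, with 58. Psmc3ip also carries the name pattern but encodes a cofactor of meiotic recombination and not a proteasome part. It is counted among the 45 and shown apart.

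The cells were INS-1 832/13, a rat insulinoma line that secretes insulin. Every group carried an adenovirus, expressing either GFP, the control, or ChREBPβ, here an mCherry-tagged mouse sequence. ChREBP, encoded by Mlxipl, is a transcription factor that responds to glucose, and its beta form is the shorter one. Cells with either virus were kept for 48 h in glucose at 2 mM or 11 mM, and 3 libraries, lettered a to c, were made from amplified RNA in each of the 4 groups. There was no untransduced group, and all libraries come from a single line, so the values describe these cultures and not islets.

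Library totals ranged from 25754488 to 60531215 counts, and replicate a of the group labelled ChREBPβ at 2 mM (28595982) was smaller than its partners (57313995 and 57726412). Values are CPM, counts relative to the total of their library after scaling by TMM factors, which set each library against the bulk of its genes. Amounts of RNA per cell cannot be read from them, and in bulk RNA fewer cells of a type and less RNA per cell cannot be told apart. Pklr, a target gene of ChREBP, was at 126, 133 and 129 CPM with GFP and at 406, 419 and 426 CPM in the libraries labelled ChREBPβ at 2 mM. The rat gene Mlxipl was lower in the latter, at a mean of 205 CPM against 256 CPM with GFP, so its count does not mark the virus. A separate line of the table named ChREBPb, whose sequence is not given in the sources used here, had means of 77.8 CPM under GFP and 90.2 CPM under ChREBPβ at 2 mM, under the 1.2-fold limit (log2 fold change 0.21, edgeR adjusted p = 0.00841), and of 68 and 88 CPM at 11 mM (0.37, edgeR adjusted p = 6.9e-05). Neither line checks the labels, and group names follow them. A list of 8 beta-cell markers summed to 23120 to 26020 CPM under GFP at 2 mM, 18800 to 20650 CPM under GFP at 11 mM, 12460 to 12870 CPM in the libraries labelled ChREBPβ at 2 mM and 11780 to 12350 CPM at 11 mM, and a list of 3 markers of other islet cells, nearly all of it Gcg, summed to 1589 to 1666, 1605 to 1719, 429.1 to 440.2 and 450.4 to 501.7 CPM in the same order. The part of these shifts in the results that follow was not tested. Markers of fibroblasts summed to at most 0.179 CPM, of leukocytes to at most 1.18 CPM and of endothelial cells to at most 1.86 CPM in any library, and Dcn and Ptprc were at 0 counts.

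The proteasome degrades proteins that carry ubiquitin chains. A barrel-shaped core, with outer rings of alpha and inner rings of beta subunits, holds the protease sites. A regulatory particle with a ring of ATPases and a set of non-ATPase subunits binds the ubiquitin chain, removes it, unfolds the protein and feeds it into the core, while other activators open the core without ATP. Dedicated chaperones build both particles, and in mammals the transcription factor Nfe2l1 raises the subunit genes together when the protease is inhibited. Beta cells make and fold large amounts of proinsulin and rely on this system to clear what misfolds.

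Most members were higher in the libraries labelled ChREBPβ than with GFP at the same glucose level. At 2 mM, 24 of 45 members were called higher, against 21.0% of all tested genes, and 2 were called lower, against 23.2% of all tested genes. At 11 mM, 13 were called higher (14.3% of all tested genes) and 2 lower (19.1% of all tested genes). A gene was called when edgeR's quasi-likelihood test gave a Benjamini-Hochberg adjusted p under 0.05 over all tested genes and the change was at least 1.2-fold. The changes were small: the median log2 fold change of the members was 0.28 at 2 mM and 0.18 at 11 mM, beside -0.02 for all tested genes at both levels. Many members lay close to the 1.2-fold limit, and on the adjusted p alone 35 were higher at 2 mM (28.8% of all tested genes) and 35 at 11 mM (23.6% of all tested genes). Scaled by library totals in place of TMM, 10 members were called higher at 2 mM and 6 at 11 mM, and 3 lower at each (Psmd10 in addition), while increases fell from 47.5% to 33.2% of all called genes at 2 mM and from 42.9% to 29.3% at 11 mM. The shares of all tested genes called higher or lower under library totals were not computed, so these member counts have no background beside them. Without Psmc3ip, the counts stayed at 24 and 13 higher among 44 genes.

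The spread between libraries was smaller than the members' median shift, more clearly at 2 mM than at 11 mM. All 3 libraries labelled ChREBPβ lay above all 3 GFP libraries for 37 members at 2 mM, against 31.2% of all tested genes, and for 33 members at 11 mM, against 26.4%. All 3 lay below all 3 GFP libraries for 2 members at 2 mM (Psme2 and Psmf1), against 32.1% of all tested genes, and for 6 at 11 mM (Psmd5, Psmd10, Psme1, Psme2, Psmg1 and Psmg2), against 29.7%. Summed over the 45 members, the level was 7072.5, 7314.8 and 7338.9 CPM under GFP at 2 mM and 8464.7, 7927.5 and 8519.6 CPM under GFP at 11 mM. The libraries labelled ChREBPβ held 8860.3, 8993.9 and 9048.9 CPM at 2 mM and 9297.8, 9871.3 and 9979.5 CPM at 11 mM. The 4 groups did not overlap in this sum, which rose in the order GFP at 2 mM, GFP at 11 mM, ChREBPβ at 2 mM and ChREBPβ at 11 mM. Before any TMM scaling, the members took 0.747% to 0.762% of the counts of the libraries with GFP at 2 mM and 0.817% to 0.863% at 11 mM. In the libraries labelled ChREBPβ they took 0.865% to 0.882% at 2 mM and 0.901% to 0.956% at 11 mM. The groups GFP at 11 mM and ChREBPβ at 2 mM thus nearly touched before TMM scaling, and most of the gap between their sums came with it. Replicate b of GFP at 11 mM and replicate a of ChREBPβ at 11 mM were the low libraries of their groups, with the members' median deviation from the group mean at -0.07 on the log2 scale in each. Without the former, 6 members were called higher at 11 mM in place of 13.

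**Figure D1:**
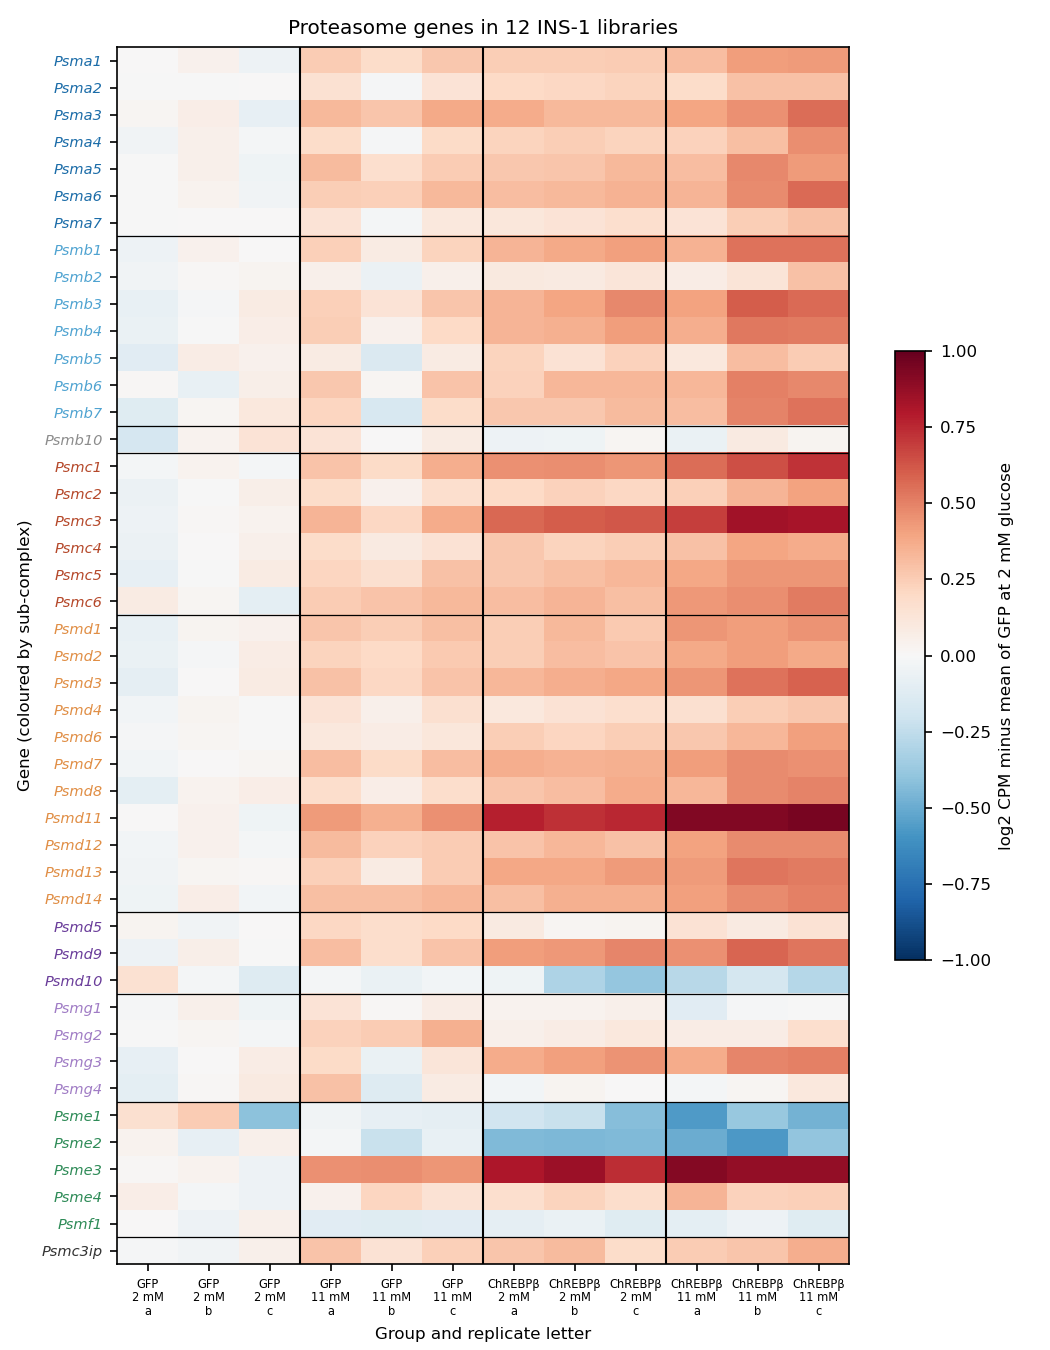
Level of each of the 45 genes in each of the 12 libraries, as log2 CPM minus the gene's mean with GFP at 2 mM glucose (colour scale from -1 to 1), with genes ordered and name colours set by sub-complex and libraries grouped by virus and glucose. Most core and regulatory particle genes darken towards red from the GFP libraries at 2 mM to those labelled ChREBPβ at 11 mM, Psme3 and Psmd11 most, while Psme1 and Psme2 turn blue in the libraries labelled ChREBPβ.

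The 5 genes that stood out were Psmd11, Psmc3 and Psme3, the 3 members with the largest increases at both glucose levels, and Psme1 and Psme2, the only members called lower. Their promoters, from 250 bases before to 50 bases after the start in RefSeq's table for the GRCr8 assembly, are printed 5′ to 3′ on the strand of the gene to show what precedes genes that moved in opposite directions. Capitals mark matches on either strand to CACGTG, the E-box that ChREBP and other basic helix-loop-helix factors can bind, to TGACNNNGC, the core of the antioxidant response element, and to CCAAT, the box bound by NF-Y.
Psme3 promoter: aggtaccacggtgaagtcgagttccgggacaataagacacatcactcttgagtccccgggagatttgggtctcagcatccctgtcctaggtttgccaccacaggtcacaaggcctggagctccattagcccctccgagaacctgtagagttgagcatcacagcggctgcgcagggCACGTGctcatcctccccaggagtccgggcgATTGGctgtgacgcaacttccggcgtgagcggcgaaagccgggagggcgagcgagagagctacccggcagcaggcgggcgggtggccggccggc
Psmd11 promoter: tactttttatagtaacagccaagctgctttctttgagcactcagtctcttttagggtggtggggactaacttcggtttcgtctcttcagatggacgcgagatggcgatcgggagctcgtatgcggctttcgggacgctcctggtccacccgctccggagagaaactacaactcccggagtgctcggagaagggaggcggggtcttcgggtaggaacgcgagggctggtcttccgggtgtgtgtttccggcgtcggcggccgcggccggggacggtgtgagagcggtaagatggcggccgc
Psmc3 promoter: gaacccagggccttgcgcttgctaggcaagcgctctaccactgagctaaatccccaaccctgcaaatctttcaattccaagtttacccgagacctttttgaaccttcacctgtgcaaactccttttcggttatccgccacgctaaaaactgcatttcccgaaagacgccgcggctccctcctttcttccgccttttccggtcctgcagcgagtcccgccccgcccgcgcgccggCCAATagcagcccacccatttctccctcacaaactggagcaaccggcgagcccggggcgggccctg
Psme1 promoter: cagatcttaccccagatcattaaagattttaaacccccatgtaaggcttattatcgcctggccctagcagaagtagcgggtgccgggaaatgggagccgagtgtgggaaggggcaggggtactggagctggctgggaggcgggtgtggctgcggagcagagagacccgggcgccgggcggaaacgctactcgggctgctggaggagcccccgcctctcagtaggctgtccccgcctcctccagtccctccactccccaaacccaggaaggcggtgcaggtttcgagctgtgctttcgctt
Psme2 promoter: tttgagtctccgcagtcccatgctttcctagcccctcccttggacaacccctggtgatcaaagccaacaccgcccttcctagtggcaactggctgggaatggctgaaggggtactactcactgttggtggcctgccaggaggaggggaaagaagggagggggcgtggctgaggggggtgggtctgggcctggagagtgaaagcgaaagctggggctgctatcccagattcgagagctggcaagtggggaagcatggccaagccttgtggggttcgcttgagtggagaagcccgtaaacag
Psme3 lies on chromosome 10 at chr10:86757683-86757982 (+ strand), Psmd11 at chr10:65932093-65932392 (+), Psmc3 at chr3:97487393-97487692 (+), Psme1 at chr15:33038721-33039020 (+) and Psme2 at chr15:33052702-33053001 (- strand). The Psme3 window held an E-box 75 to 70 bases before the start and a CCAAT box on the opposite strand at 44 to 40 bases before it. The Psmc3 window held a CCAAT box from -16 to -12, and those of Psmd11, Psme1 and Psme2 held none of these letters.

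Promoters were found for 41 of the 45 members and not for Psma7, Psmd6, Psmd12 and Psmd14. An E-box stood in 5 of the 41 (12.2%; Psma4, Psmb3, Psmc1, Psmd9 and Psme3), and in 6.65% of all 27457 promoters of the table. TGACNNNGC stood in 8 (19.5%, against 12.2% of all promoters) and CCAAT in 20 (48.8%, against 37.7%). The carbohydrate response element, a pair of E-box-like motifs at a fixed spacing to which ChREBP binds, was matched in 0 of 41 windows and in 0.524% of all promoters. Of the 5 members with an E-box, 4 were called higher at each glucose level, with a median log2 fold change of 0.45 at 2 mM and 0.31 at 11 mM. Among the 36 without one, 18 were called higher at 2 mM and 9 at 11 mM, with medians of 0.27 and 0.16. For CCAAT, 12 of 20 members with it and 10 of 21 without were called higher at 2 mM, and 9 and 4 at 11 mM. The medians were 0.31 and 0.24 at 2 mM, and 0.19 with and without it at 11 mM. For TGACNNNGC, 5 of 8 with it and 17 of 33 without were called higher at 2 mM, and 2 and 11 at 11 mM. The medians were 0.29 and 0.28 at 2 mM, and 0.19 with and without it at 11 mM. These are descriptions of letters in short windows, with no test.

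In the core particle, the 7 alpha subunits, which form the outer rings and the gate, all had adjusted p under 0.05 at both glucose levels (edgeR), but the changes were slight. Psma3 (0.34), Psma6 (0.33) and Psma5 (0.29 on the log2 scale) were called at 2 mM, and at 11 mM none of the 7 reached 1.2-fold, their log2 fold changes lying between 0.14 and 0.21. Their summed level was 1420.8 ± 28.4 CPM with GFP and 1674.1 ± 14.2 CPM under ChREBPβ at 2 mM, and 1610.5 ± 73.45 and 1800.8 ± 95.13 CPM at 11 mM (SD, n = 3).

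The 7 constitutive beta subunits form the inner rings. Of these, 5 were called higher at 2 mM and 4 at 11 mM, with a median log2 fold change of 0.30 at both levels, and none was called lower. Psmb3, a non-catalytic subunit, changed most at 2 mM, by 0.40 on the log2 scale (standard error, SE, 0.06, with edgeR adjusted p = 3.76e-06), and by 0.31 at 11 mM (edgeR adjusted p = 9.89e-05). Psmb1 (0.38 and 0.30) and Psmb4 (0.37 and 0.30), also without a protease site, were called at both levels, whereas Psmb2 was at 0.10 and 0.15 and called at neither.

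The protease sites themselves lie in Psmb5, Psmb6 and Psmb7. Psmb5, the chymotrypsin-like subunit and main target of proteasome inhibitors, was at 85, 97 and 95 CPM under GFP at 2 mM and at 107, 102 and 108 CPM with ChREBPβ. At 11 mM it was at 97.6, 83.6 and 97.7 CPM with GFP and at 99.4, 114 and 110 CPM with ChREBPβ. The groups did not overlap at either level, and the log2 fold changes of 0.19 (SE 0.06, edgeR adjusted p = 0.0151) and 0.21 (SE 0.06, edgeR adjusted p = 0.00907) were under the 1.2-fold limit. Psmb6, the caspase-like subunit, was at 121, 115 and 126 CPM with GFP and 141, 151 and 152 CPM under ChREBPβ at 2 mM, and at 145, 122 and 147 CPM and 151, 171 and 168 CPM at 11 mM. It was called at 2 mM (log2 fold change 0.30, edgeR adjusted p = 0.000436) and just missed the limit at 11 mM (0.25, edgeR adjusted p = 0.00269), where DESeq2 put it at 0.27 and over the limit. Psmb7, the trypsin-like subunit, was at 116, 128 and 136 CPM with GFP and 152, 152 and 157 CPM under ChREBPβ at 2 mM, and at 146, 113 and 143 CPM and 156, 178 and 184 CPM at 11 mM. Its log2 fold changes of 0.28 (edgeR adjusted p = 0.0049) and 0.36 (edgeR adjusted p = 0.000709) both passed. The value at 11 mM fell to 0.25, under the limit, without replicate b of GFP, the lowest of its group for all 3 catalytic subunits, and the value at 2 mM fell to 0.22 without replicate a of GFP.

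Psmb10 replaces Psmb7 in the immunoproteasome, the form of the core that interferon induces for antigen processing. It was at 38.1, 43.8 and 46.9 CPM with GFP and at 41.4, 41.6 and 43.4 CPM under ChREBPβ at 2 mM, and at 47.1, 42.9 and 45.3 CPM and 40.8, 45.6 and 43.5 CPM at 11 mM. The groups overlapped at both levels, and the log2 fold changes were -0.03 and -0.06 (SE 0.07 and 0.06, edgeR adjusted p = 0.736 and 0.471). The immunoproteasome subunit Psmb8, no member, had a mean of 3.5 CPM with GFP and 4.46 CPM under ChREBPβ at 2 mM and was called higher at both levels (0.36 and 0.37, edgeR adjusted p = 0.0155 and 0.0114), and Psmb9 was at -0.01 and 0.18 and called at neither.

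**Figure D2:**
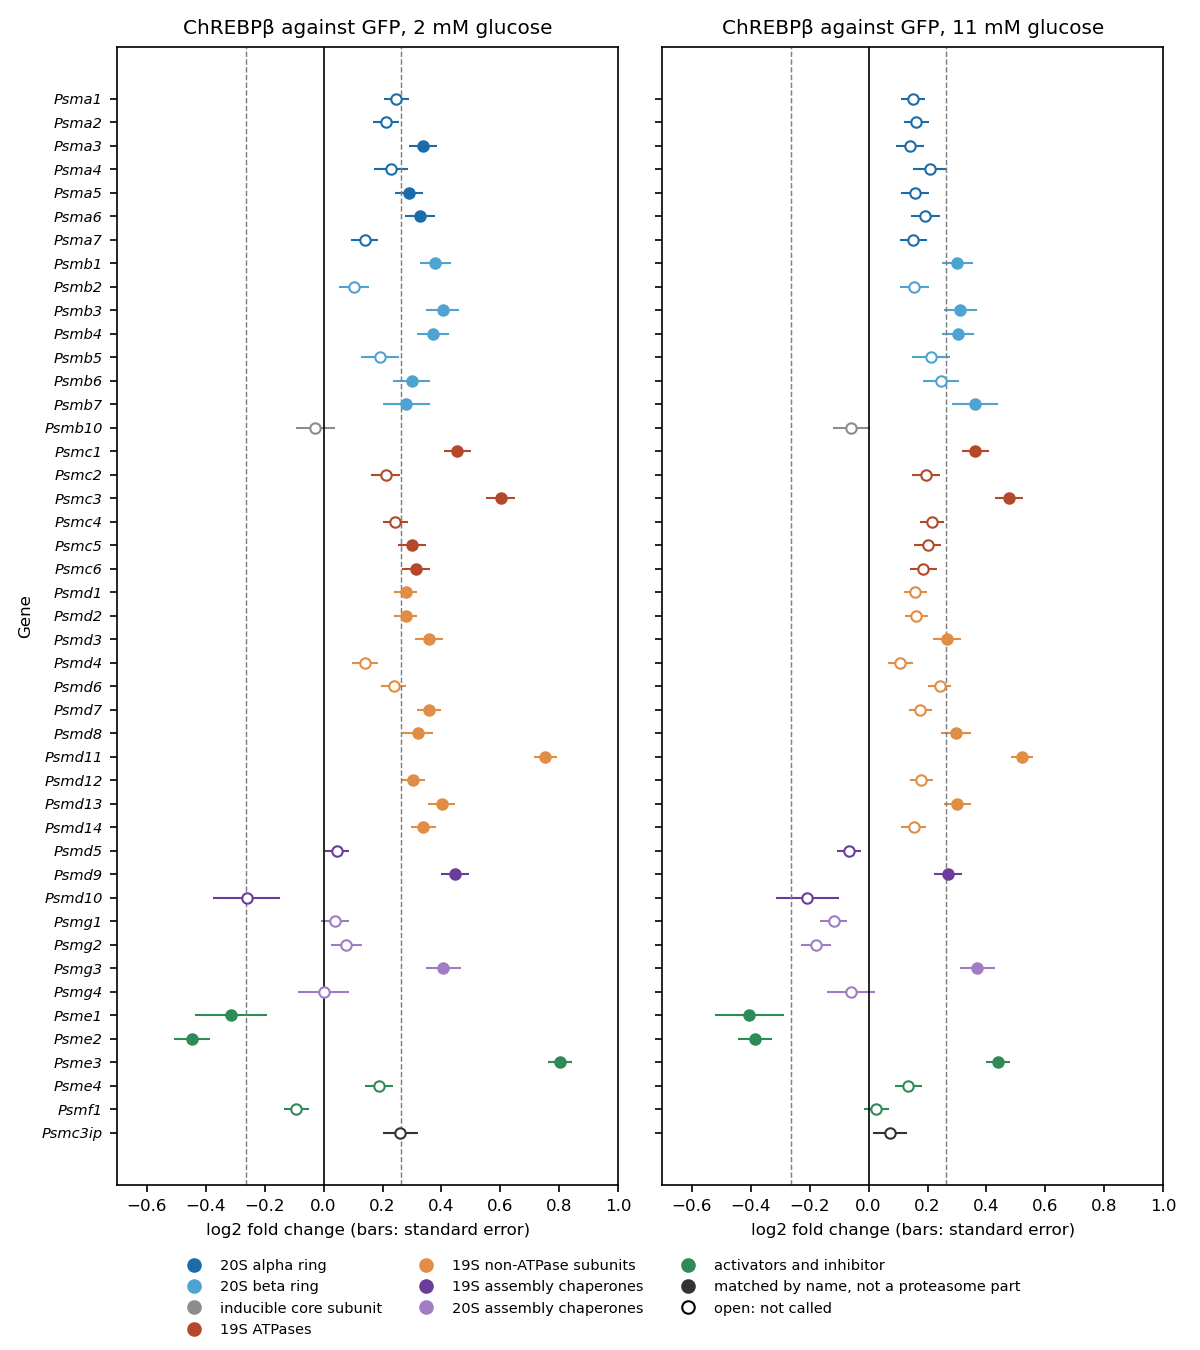
Log2 fold change of each gene between libraries labelled ChREBPβ and GFP libraries at 2 mM (left) and 11 mM glucose (right), with bars for the standard error (SE), dashed lines at 1.2-fold, filled points for called genes and colours for sub-complexes. The constitutive core and regulatory subunits sit between 0.10 and 0.75 at 2 mM, all above 0, while the chaperones and activators spread from -0.45 to 0.80.

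In the regulatory particle, all 6 ATPases had adjusted p under 0.05 at both levels (edgeR). Called higher were 4 at 2 mM (Psmc1, Psmc3, Psmc5 and Psmc6) and 2 at 11 mM (Psmc1 and Psmc3), with medians of 0.31 and 0.21. Psmc3, one of the subunits whose tail opens the core's gate, was at 250, 261 and 265 CPM with GFP and 386, 394 and 398 CPM under ChREBPβ at 2 mM. At 11 mM it was at 328, 299 and 334 CPM with GFP and 417, 463 and 458 CPM with ChREBPβ. No library of one group reached the range of another, and the log2 fold changes were 0.60 (SE 0.05, edgeR adjusted p = 1.88e-09) and 0.48 (SE 0.05, edgeR adjusted p = 6.94e-08). Psmc1 was at 283, 294 and 284 CPM with GFP and 394, 396 and 389 CPM under ChREBPβ at 2 mM, and at 349, 328 and 368 CPM and 423, 448 and 473 CPM at 11 mM, with log2 fold changes of 0.45 (edgeR adjusted p = 6.76e-08) and 0.36 (edgeR adjusted p = 1.94e-06). The ATPases form a ring with 1 copy of each, yet they did not move in equal measure: counted within each library, Psmc3 was 1.19 to 1.23 times Psmc2 with GFP and 1.58 to 1.62 times with ChREBPβ at 2 mM, a change of 1.31-fold. At 11 mM the same ratio went from 1.36 to 1.4 up to 1.64 to 1.72, a change of 1.22-fold. The exact two-sided permutation test gave p = 0.1 for each, the smallest that 3 against 3 libraries allow, and the pair of genes was picked with these values known.

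All 11 non-ATPase subunits also had adjusted p under 0.05 at both levels (edgeR), with medians of 0.32 and 0.18. At 2 mM, 9 were called higher, all but Psmd4 and Psmd6, and at 11 mM 4 (Psmd3, Psmd8, Psmd11 and Psmd13). Psmd11, which clamps the regulatory particle to the core and whose supply can limit assembly of the whole protease, had the largest change of any subunit. It was at 188, 192 and 182 CPM with GFP and 320, 311 and 315 CPM under ChREBPβ at 2 mM. At 11 mM the values were 251, 239 and 257 CPM with GFP and 356, 356 and 361 CPM with ChREBPβ. The 4 groups were fully apart, in the same order as the summed level, and the log2 fold changes were 0.75 (SE 0.04, edgeR adjusted p = 2.27e-12) and 0.52 (SE 0.04, edgeR adjusted p = 8.04e-10). Against Psmd4, a ubiquitin receptor of the same particle with log2 fold changes of 0.14 and 0.11, the count of Psmd11 rose from 1.24 to 1.3 times up to 1.91 to 2.03 times at 2 mM, and from 1.56 to 1.57 up to 2.04 to 2.17 times at 11 mM. This pair was picked for its unequal changes, and the ratio is a description with no test. Psmd14, the deubiquitinase that strips the chain from a substrate, was called at 2 mM (0.34, edgeR adjusted p = 1.49e-06) and stayed under the limit at 11 mM (0.15, edgeR adjusted p = 0.00528).

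The chaperones did not move as a block. Of the 3 among the members that help to build the base of the regulatory particle, Psmd9 was at 70.3, 75.5 and 72.3 CPM with GFP and 97.2, 98.3 and 102 CPM under ChREBPβ at 2 mM, and at 89.9, 82.3 and 88.7 CPM and 99.9, 109 and 106 CPM at 11 mM. Its log2 fold changes were 0.45 (SE 0.05, edgeR adjusted p = 1.53e-07) and 0.27 (SE 0.05, edgeR adjusted p = 9.21e-05), the latter just over the limit and under it (0.23 to 0.26) without any one of replicate b of GFP and replicates b and c of ChREBPβ at 11 mM. Psmd5 was at 79.3, 76 and 77.7 CPM with GFP and 82.7, 78.7 and 79.2 CPM under ChREBPβ at 2 mM, where the groups overlapped, and at 89.7, 87.5 and 89.2 CPM and 85.9, 82.6 and 85.9 CPM at 11 mM, with log2 fold changes of 0.05 and -0.07 that were not called (edgeR adjusted p = 0.369 and 0.186). Psmd10, also known as gankyrin, was low, at 6.84, 6.06 and 5.61 CPM with GFP and 5.98, 4.96 and 4.69 CPM under ChREBPβ at 2 mM, and 6.06, 5.87 and 6.03 CPM and 5.07, 5.44 and 5.05 CPM at 11 mM. Its log2 fold changes of -0.26 and -0.21 had SEs of 0.11 and were not called (edgeR adjusted p = 0.0562 and 0.116).

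Psmg1 to Psmg4 encode the chaperones of the core, which work as the pairs Psmg1 with Psmg2 and Psmg3 with Psmg4. Psmg3 was at 76.6, 81.3 and 85.2 CPM with GFP and 104, 107 and 110 CPM under ChREBPβ at 2 mM, and at 92.4, 77.1 and 88 CPM and 105, 114 and 115 CPM at 11 mM, with log2 fold changes of 0.41 (edgeR adjusted p = 8.22e-06) and 0.37 (edgeR adjusted p = 2.95e-05). Its partner Psmg4 was at 17.2, 18.5 and 19.6 CPM with GFP and 18.1, 18.7 and 18.5 CPM under ChREBPβ at 2 mM, and at 22.5, 16.8 and 19.5 CPM and 18.2, 18.7 and 19.8 CPM at 11 mM. The Psmg4 groups overlapped at both levels (edgeR adjusted p = 1 and 0.581), so the members of this pair gave different calls. Psmg1 was at 62.4, 64.9 and 61.1 CPM with GFP and 64.2, 64.3 and 65.1 CPM under ChREBPβ at 2 mM, and at 69, 63.2 and 66.2 CPM and 58.1, 62.2 and 62.5 CPM at 11 mM. Psmg2 was at 30.9, 31.4 and 30.5 CPM with GFP and 32.1, 32.6 and 33.3 CPM under ChREBPβ at 2 mM, and at 36.3, 37 and 39.6 CPM and 32.6, 32.5 and 34.7 CPM at 11 mM. For both genes the sign differed between the glucose levels: the log2 fold changes were 0.04 and -0.12 for Psmg1 and 0.08 and -0.18 for Psmg2. Scaled by library totals, the values at 2 mM were also below 0, at -0.06 for Psmg1 and -0.02 for Psmg2. Neither gene was called, although the decreases at 11 mM had edgeR adjusted p = 0.0411 and 0.00629.

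The activators held the largest increase at 2 mM and the only members called lower. Psme3 encodes the nuclear activator that opens the core without ATP or ubiquitin. It was at 102, 103 and 97.6 CPM with GFP and 177, 183 and 169 CPM under ChREBPβ at 2 mM. At 11 mM it was at 138, 139 and 137 CPM with GFP and 191, 186 and 186 CPM with ChREBPβ. The 4 groups were apart, and the log2 fold changes were 0.80 (SE 0.04, edgeR adjusted p = 1.92e-12) and 0.44 (SE 0.04, edgeR adjusted p = 1.87e-08).

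Psme1 and Psme2 encode the partner subunits of the cytosolic activator, which interferon gamma induces together with the immunoproteasome. Psme2 was at 50.7, 46.9 and 51.3 CPM with GFP and 36.4, 36.3 and 36.5 CPM under ChREBPβ at 2 mM. At 11 mM it was at 49, 42.4 and 47 CPM with GFP and 35.1, 33.4 and 37.7 CPM with ChREBPβ. The groups did not overlap, and the log2 fold changes were -0.45 (SE 0.06, edgeR adjusted p = 2.55e-06) and -0.38 (SE 0.06, edgeR adjusted p = 1.73e-05). Psme1 was at 14.6, 15.5 and 9.78 CPM with GFP and 11.4, 11.2 and 9.69 CPM under ChREBPβ at 2 mM, and at 12.7, 12.3 and 12.2 CPM and 8.8, 10 and 9.36 CPM at 11 mM. The groups overlapped at 2 mM, where replicate c of GFP was low, and were apart at 11 mM. Its log2 fold change of -0.32 at 2 mM (SE 0.12, edgeR adjusted p = 0.0327) lost its call without replicate a of GFP (-0.25, edgeR adjusted p = 0.129), replicate b of GFP (-0.18, edgeR adjusted p = 0.247) or replicate c of ChREBPβ (-0.24, edgeR adjusted p = 0.152), whereas that of -0.40 at 11 mM (edgeR adjusted p = 0.00763) kept its call without any one library.

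Set against each other within a library, which needs no scaling, the count of Psme3 was 1.9 to 2.2 times that of Psme2 with GFP at 2 mM, 2.82 to 3.28 times with GFP at 11 mM, 4.62 to 5.04 times with ChREBPβ at 2 mM and 4.94 to 5.56 times with ChREBPβ at 11 mM. The ratio rose 2.37-fold with ChREBPβ at 2 mM and 1.77-fold at 11 mM, without overlap (p = 0.1 at both levels in a two-sided exact permutation test, the smallest possible, for a pair picked with these values known). The ratio of Psme2 to Psme1 showed no such shift, at 0.893-fold and 1.02-fold (exact permutation p = 0.7 and 0.6). A list of 14 tested interferon response genes stood at a median log2 fold change of -0.27 at 2 mM, with 3 called higher and 6 lower, and of -0.17 at 11 mM, with 5 higher and 3 lower. Of all tested genes, 21.0% were called higher and 23.2% lower at 2 mM, and 14.3% and 19.1% at 11 mM. The list moved both ways: Stat2 (-0.96 and -0.63), which carries the interferon signal to the nucleus, was called lower at both levels, and Irf7 (0.67 and 0.83), Mx1 (0.91 and 0.84) and Tap1 (0.37 and 0.65) were called higher at both. Of these, Mx1 was near the floor, at 0.735, 0.233 and 0.417 CPM (8 to 20 counts) with GFP at 2 mM. With ChREBPβ at 2 mM Mx1 was at 0.537, 1.05 and 0.86 CPM (15 to 59 counts), and the groups overlapped. The part of interferon signalling in the levels of Psme1 and Psme2 was not tested.

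The other genes of this class changed little. Psme4, which encodes a large nuclear activator, was at 320, 301 and 295 CPM with GFP and 342, 356 and 345 CPM under ChREBPβ at 2 mM, and at 314, 355 and 337 CPM and 386, 359 and 360 CPM at 11 mM, with log2 fold changes of 0.19 and 0.14 under the limit (edgeR adjusted p = 0.00203 and 0.023). Psmf1, which encodes an inhibitor of the core, was at 80.2, 77.4 and 83.1 CPM with GFP and 75.3, 76.4 and 73.8 CPM under ChREBPβ at 2 mM, and at 74.1, 73.8 and 74.3 CPM and 75, 77.5 and 73.8 CPM at 11 mM. Its log2 fold changes were -0.09 and 0.03, and neither was called (edgeR adjusted p = 0.0685 and 0.635). Psmc3ip was at 0.26 at 2 mM and 0.07 at 11 mM, under the limit at both.

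**Figure D3:**
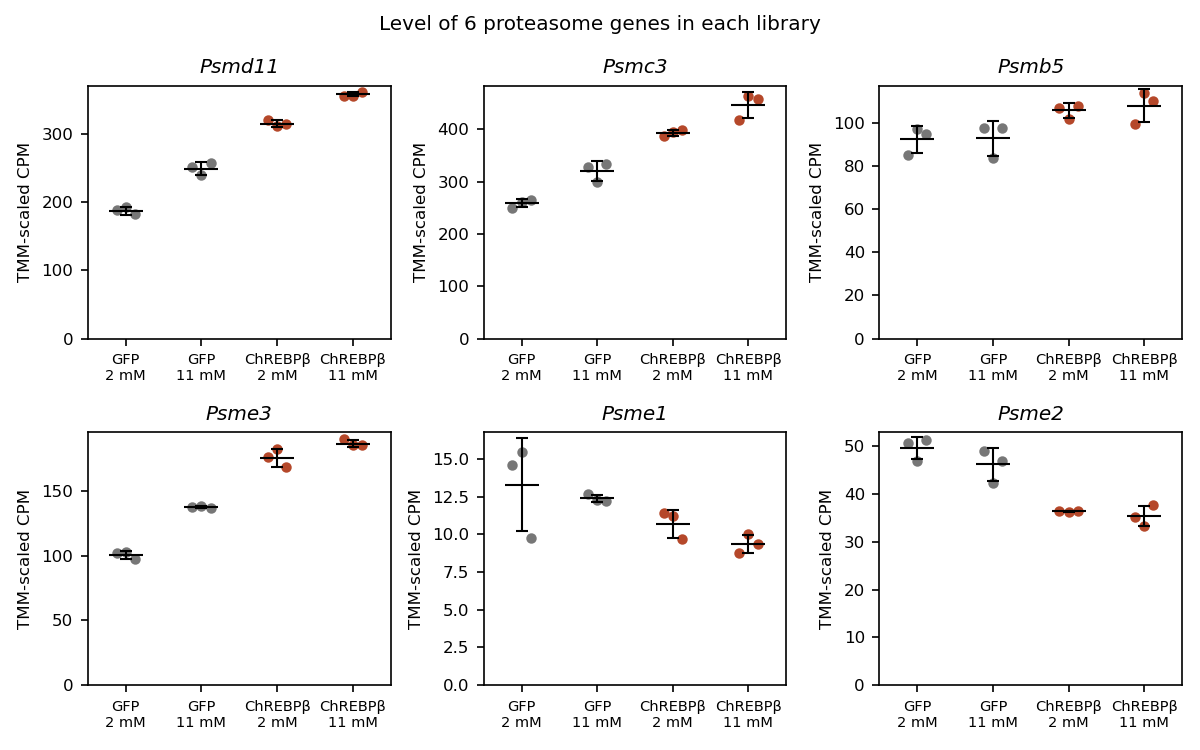
TMM-scaled CPM of 6 genes in each library (points), with the group mean and SD (bars, n = 3), for GFP (grey) and ChREBPβ (red) at 2 and 11 mM glucose, on axes that start at 0. Psmd11, Psmc3 and Psme3 climb over the 4 groups, Psmb5 differs slightly by virus, Psme2 is lower in both groups labelled ChREBPβ, and for Psme1 replicate c of GFP at 2 mM (9.78 CPM) lies within the range of the ChREBPβ libraries.

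Raising glucose in cells with the GFP virus also shifted the members upwards. Of 45, 12 were called higher, against 10.2% of all tested genes, and 0 were called lower, against 10.0%, with a median log2 fold change of 0.19 beside -0.00 for all tested genes. For the count of 0, edgeR gave 1 decrease at an unadjusted p under 0.05, that of Psmf1 (-0.11), and DESeq2 also called 0. On the adjusted p alone, 30 were higher, against 18.2% of all tested genes. Those called were Psme3 (0.45, edgeR adjusted p = 8.98e-08), Psmd11 (0.41, edgeR adjusted p = 1.32e-07), Psma3, Psma6, Psmc1, Psmc3, Psmc6, Psmd1, Psmd7, Psmd12, Psmd14 and the core chaperone Psmg2 (0.28, edgeR adjusted p = 0.000319). No beta subunit was among them: their log2 fold changes ran from 0.01 for Psmb5 to 0.22 for Psmb3, and 4 of 7 had adjusted p under 0.05 (edgeR). Without replicate c of GFP at 11 mM, 7 members were called higher in place of 12.

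In the libraries labelled ChREBPβ, 0 members were called in either direction between 11 and 2 mM, against 0.988% of all tested genes higher and 2.88% lower. DESeq2 also called 0, and at an unadjusted p under 0.05 edgeR gave 23 increases and 0 decreases. The share of all tested genes at that unadjusted limit was not computed. On the adjusted p alone 8 were higher, against 2.72% of all tested genes, Psmd11 (0.18, edgeR adjusted p = 0.00555) and Psmc1 (0.19, edgeR adjusted p = 0.0153) among them. The median log2 fold change was 0.10, beside 0.00 for all tested genes. The glucose responses under the 2 viruses share no library, and across the 45 genes they had Pearson's r = 0.693 and Spearman's rho = 0.674. Genes are not independent replicates, and all share the same scaling of each library.

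Whether the ChREBPβ effect differed between the glucose levels was tested as the difference of the effects in the same fit, which equals the difference of the glucose effects between the viruses. Of the members, 1 was called lower, Psme3, against 4.74% of all tested genes, and 0 higher, against 1.56%. DESeq2 gave the same counts. At an unadjusted p under 0.05 edgeR gave 11 members lower and 0 higher, with no share of all tested genes computed. The effect on Psme3 was 0.36 smaller on the log2 scale at 11 mM (difference -0.36, SE 0.06, edgeR adjusted p = 0.000383). Psmd11 (-0.23, edgeR adjusted p = 0.0113) and Psmg2 (-0.26, edgeR adjusted p = 0.0353) passed on the adjusted p and not on the fold change. For the other 42 members the difference did not pass, with SEs of 0.06 to 0.17, and the median over all members was -0.09 beside -0.01 for all tested genes. Across the 45 members, the ChREBPβ effects at 2 and 11 mM, which share no library, had Pearson's r = 0.922 and Spearman's rho = 0.841, against r = 0.852 over all 14669 tested genes.

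**Figure D4:**
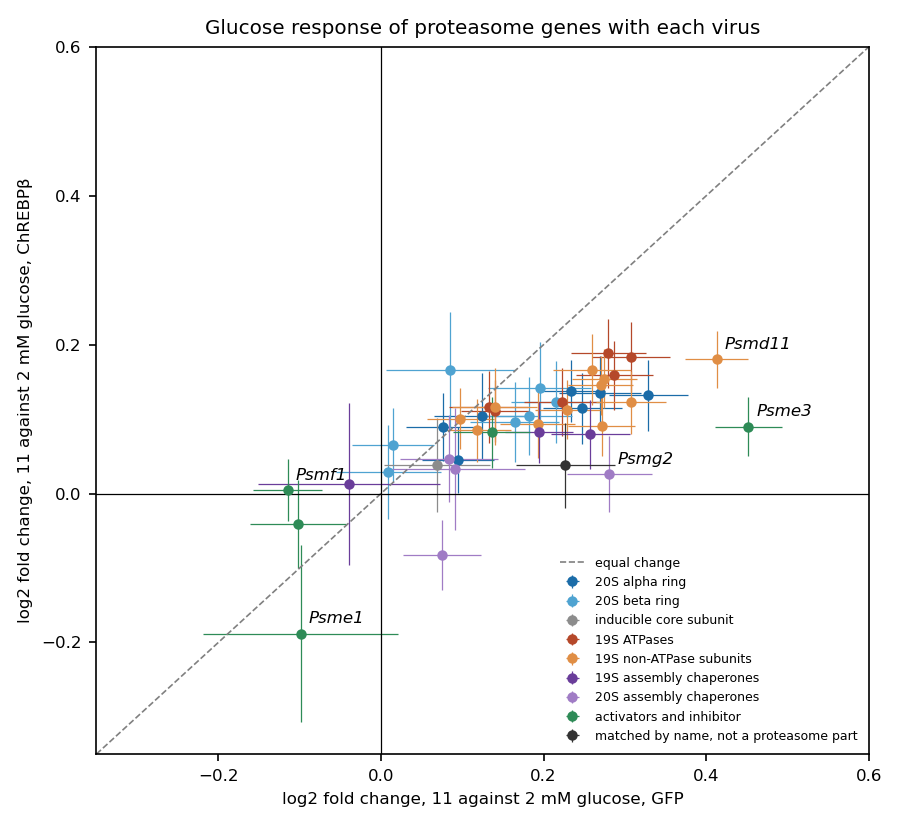
Log2 fold change of each gene between 11 and 2 mM glucose with the GFP virus (x axis) and in the libraries labelled ChREBPβ (y axis), with SEs as bars, colours for sub-complexes and a dashed line of equal change. The point of 37 of the 45 genes lies below the line, and Psme3, at 0.45 against 0.09, lies farthest from it. Above the line lie 8 of the 45, and 7136 of all 14669 tested genes would.

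Genes that work with the proteasome without carrying its name were listed apart. In a list of 20 partners, 17 were tested, with medians of 0.21 and 0.14. Of these, 5 were called higher at 2 mM and 3 at 11 mM, shares not far from the 21.0% and 14.3% of all tested genes. At both levels 0 were called lower, against 23.2% and 19.1% of all tested genes. The 3 called at both levels were the shuttle Ubqln2 (0.71 and 0.69, edgeR adjusted p = 2.02e-10 and 4.27e-10), Zfand5, which encodes an activator of the regulatory particle (0.61 and 0.44), and Adrm1, which encodes a ubiquitin receptor of that particle (0.39 and 0.32). The deubiquitinases Usp14 (0.25 and 0.16) and Uchl5 (0.24 and -0.01) were not called.

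Among 12 genes that control proteasome transcription, 4 were called higher and 1 lower at 2 mM, against 21.0% and 23.2% of all tested genes. At 11 mM, 2 were called higher and 1 lower, against 14.3% and 19.1% of all tested genes. Nfe2l1, the factor named above, was at 217, 218 and 208 CPM with GFP and 194, 200 and 197 CPM under ChREBPβ at 2 mM, a log2 fold change of -0.12 under the limit (edgeR adjusted p = 0.00776), and at -0.06 at 11 mM (edgeR adjusted p = 0.18). Ngly1, which encodes the glycanase that processes its protein, was at 43.9, 40.6 and 40.3 CPM with GFP and 31.3, 30.9 and 30.2 CPM under ChREBPβ at 2 mM, and was called lower at both levels (-0.43 at each). The related factor Nfe2l2 was at 50.3, 53.7 and 49.2 CPM with GFP and 65.2, 65.5 and 62.6 CPM under ChREBPβ at 2 mM, and was called higher at both levels (0.33 and 0.37, edgeR adjusted p = 1.02e-05 and 3.04e-06). Mafk, which encodes a small Maf partner of both factors, rose by 0.82 and 0.73 on the log2 scale (edgeR adjusted p = 7.28e-12 and 4.16e-11). These are transcript levels, and the activity of the factors was not measured.

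Other large complexes, listed for comparison, moved as well. All 8 tested genes of the TRiC chaperonin, which folds actin and tubulin, were called higher at 2 mM and 3 at 11 mM, with medians of 0.44 and 0.21. Of 84 tested cytosolic ribosomal protein genes, 66 were called higher and 1 lower at 2 mM, and 46 and 1 at 11 mM, with medians of 0.40 and 0.29. The COP9 signalosome, whose subunits resemble those of the regulatory particle's lid, had 1 of 9 genes called higher at 2 mM and 0 at 11 mM, with medians of 0.16 and 0.15. Of all tested genes, 21.0% were called higher and 23.2% lower at 2 mM, and 14.3% and 19.1% at 11 mM. No test of the members against these lists was made.

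Possible copies of the members may limit some counts. They were found by name alone, and their sequences were not compared. RefSeq lists 52 further entries named as pseudogenes or numbered look-alikes of 19 of the 45 members, and 1 of these, Psme1-ps1, has its own line among the counts. How reads that match both a gene and its copy were counted is not given in the sources used here. The levels of those 19 genes may therefore be less certain than those of the others. They are Psma2, Psma3, Psma5, Psma6, Psma7, Psmb3, Psmb4, Psmb6, Psmb7, Psmc4, Psmc6, Psmd1, Psmd8, Psmd12, Psmd14, Psme1, Psme2, Psme3 and Psmg4. Psmb3 has 10 such entries, Psme3 has 4, and Psme1 and Psme2 have 3 each. Psmd11 and Psmc3 have 0. Transcript lengths were not at hand, and levels of different genes are therefore not compared.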

How the data were processed

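Amplified RNA was sequenced in 12 libraries. The authors counted paired-end reads per gene and deposited raw counts without normalization. Their processing notes name the build Rnor_6.0 and edgeR; the aligner and the counting program are not given in the sources used here. The deposited group means were not used. One entry without a gene name, with 0.0043% to 0.00601% of a library's counts, was left out of totals and tests.

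Groups were taken from the labels of virus and glucose. The study describes its RNA-seq values as averages over independent experiments, so the libraries of a group were taken as independent replicates. Genes were filtered with filterByExpr by group, scaled with TMM and fitted in a single quasi-likelihood model of all 12 libraries (R 4.3.3, edgeR 4.0.16). A gene was called at a Benjamini-Hochberg adjusted p under 0.05 over all tested genes and a change of at least 1.2-fold. Standard errors (SE) are the log2 fold change divided by the square root of F. The alternatives were DESeq2 1.42.0, RLE factors, library totals, no filter, a minimum of 10 counts in all libraries, a replicate block, no minimum fold change, fits of the compared groups only, and each library left out in turn. Libraries of the same group always differed by more than counting noise (chi-square per degree of freedom 3.07 to 17.3). The tests were checked on simulated counts, with changes given to 200 genes drawn from all tested genes in the group ChREBPβ at 2 mM. In the data, 8606 genes had an adjusted p under 0.05 (edgeR) in that comparison. Rates from the simulation may therefore not hold for the members. Of 50 genes with a true 1.2-fold change, edgeR gave 23 an adjusted p under 0.05 and called 17. At a true 1.5-fold change it called 37 of 50. Of 14301 unchanged genes, 15 had an adjusted p under 0.05 (edgeR). A member that was not called is therefore not shown to be unchanged. Promoters came from RefSeq's GRCr8 table, and figures were drawn with matplotlib 3.10.9. Every member may be named; values in every library are given for catalytic subunits, activators, the inhibitor, assembly factors and, at each glucose level, the 5 members with the largest called increases and decreases. The members, the lists and the rule were chosen with earlier results of these data known. A few other genes are not reported here.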

Additional observations from a re-analysis of the deposited data

Results flagged for a closer look

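Psme3, which encodes the nuclear activator of the core, was the member whose response to ChREBPβ differed between the glucose levels by the test of the difference itself. It rose by 0.80 on the log2 scale at 2 mM and by 0.44 at 11 mM, a difference of -0.36 (SE 0.06, edgeR adjusted p = 0.000383). With GFP its level rose from 101 ± 3.03 CPM at 2 mM to 138 ± 1.08 CPM at 11 mM, and in the libraries labelled ChREBPβ it was 176 ± 6.92 and 187 ± 2.9 CPM (SD, n = 3). The difference was called under each of the 18 alternatives run, between -0.39 and -0.34.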

How the results depend on the processing

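Counts of members near the 1.2-fold limit depended on scaling and on that limit. For library totals, the shares of all tested genes called higher or lower were not computed. Scaled by library totals instead of TMM factors, 10 members were called higher with ChREBPβ at 2 mM, 6 at 11 mM and 5 with glucose under GFP, and the members' median was 0.18 and 0.094 with ChREBPβ at 2 and 11 mM; the median of all tested genes moved with it, to -0.12 and -0.10, so that the members stood 0.296 and 0.195 above it, against 0.295 and 0.195 with TMM. With no minimum fold change, 35 members were higher and 4 lower with ChREBPβ at 11 mM, 30 higher and 1 lower with glucose under GFP, 8 higher with glucose under ChREBPβ, and 3 lower in the difference of the effects.

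Leaving out single libraries, members called higher numbered 6 (without replicate b of GFP at 11 mM) to 16 with ChREBPβ at 11 mM and 7 (without replicate c of GFP at 11 mM) to 17 with glucose under GFP. Members called lower numbered 1 to 3 with ChREBPβ at 2 mM. The number was 1 without any one of replicates a and b of GFP and replicate c of ChREBPβ, all at 2 mM. With glucose under GFP, 0 to 1 (without replicate c of GFP at 2 mM) were called lower. In the difference, 1 to 2 were called lower. The number was 2 without any one of replicates a and b of GFP and replicate c of ChREBPβ, all at 11 mM. Why these libraries move the counts was not tested. The sign held under each of 19 alternatives for 40 of 45 members at 2 mM and 42 at 11 mM, called members among them. At 2 mM, 11 members kept their call under each of 19 alternatives (Psmb1, Psmb3, Psmb4, Psmc1, Psmc3, Psmd9, Psmd11, Psmd13, Psme2, Psme3 and Psmg3), and 7 at 11 mM (Psmc1, Psmc3, Psmd11, Psme1, Psme2, Psme3 and Psmg3).

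Replicate letters did not pair the libraries: over 18 same-letter pairs the correlation of deviations lay between -0.114 and 0.0644, and 4 of 12 libraries correlated best with their own letter. With the letter as a replicate block, 24 and 13 members were called higher with ChREBPβ at 2 and 11 mM, as without it. The planned trend on transcript length was not run, because the reference table at hand gives gene spans.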
